A study of Mus musculus with 12 samples.

Results

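Gal, Cpeb1, Padi4, Nanos1, Spock2, Sostdc1, Angptl2, Mturn and Tnfaip8 are 9 protein-coding genes whose transcripts were more abundant in T follicular helper cells than in another CXCR5-positive CD4 T cell population of the same infection, and whose best known functions lie outside T cell help. They were picked by name from the 55401 genes of the deposited tables, on the difference between these populations in these libraries. Their difference is therefore described here with its values and without a test. All 9 were abundant enough to enter the fit across 12015 genes. The working description of the set as strongly restricted to Tfh cells held for only part of it. In Gal, Cpeb1, Padi4 and Sostdc1 the mean level in the other population was between 0% and 6.80% of the Tfh level, while in Spock2, Nanos1, Mturn, Angptl2 and Tnfaip8 it was between 20.1% and 43.1%, so those 5 are called Tfh-high and not Tfh-restricted.

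The study profiled spleen CD4 T cells of C57BL/6 mice by bulk RNA sequencing on day 21 of infection with Leishmania donovani, the protozoan parasite of visceral leishmaniasis. Magnetic enrichment of CD4 cells preceded a flow cytometric sort into a pair of populations, with 6 libraries each from 6 mice. Cells carrying LAG-3 and CXCR5 with low to intermediate PD-1 are called TLCP cells below. Cells with CXCR5 and high PD-1 are called Tfh cells, and the series text describes them as mostly of germinal centre type. Both populations came from infected mice that were otherwise not treated according to the labels, and no uninfected group was analysed here, so a level cannot be referred to resting cells. The labels number the libraries of each population from 1 to 6. They do not give sex or age of the mice, nor a batch.

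Tfh cells enter B cell follicles through the chemokine receptor CXCR5 and give germinal centre B cells the signals for survival and affinity maturation. Bcl6, PD-1 and IL-21 stand at the core of their known programme. The genes described here encode 4 kinds of protein: secreted factors (Gal, Sostdc1, Angptl2 and the proteoglycan Spock2), RNA-binding regulators of translation best known from germ cells and neurons (Cpeb1 and Nanos1), a histone-modifying enzyme of granulocytes (Padi4), and cytoplasmic proteins of differentiation and cell survival (Mturn and Tnfaip8).

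In the mouse build GRCm38, Gal (minus strand, start 3409915, end 3414544) and Nanos1 (plus strand, start 60755987, end 60759914) lie on chromosome 19. Cpeb1 spans chr7:81347026-81455465 on the minus strand, Padi4 spans chr4:140745865-140774236 on the minus strand and Mturn spans chr6:54681624-54703851 on the plus strand. Spock2 spans chr10:60106219-60135198, Sostdc1 spans chr12:36314139-36318452 and Angptl2 spans chr2:33216069-33247717, all on the plus strand. Promoters of 300 bases, from 250 before to 50 after the transcription start of RefSeq on GRCm38.p6, were at hand for 7 of the 9, all but Sostdc1 and Tnfaip8. Below are those of Gal, Cpeb1 and Padi4, the most Tfh-restricted genes with an entry, and of Mturn, which had a cyclic AMP response element. Each is written 5′ to 3′ on the strand of the gene, and capitals mark, on either strand, the TATA box (TATAAA), the GC box (GGGCGG) and the cyclic AMP response element (TGACGTCA).
Gal, chr19:3414495-3414794, minus strand: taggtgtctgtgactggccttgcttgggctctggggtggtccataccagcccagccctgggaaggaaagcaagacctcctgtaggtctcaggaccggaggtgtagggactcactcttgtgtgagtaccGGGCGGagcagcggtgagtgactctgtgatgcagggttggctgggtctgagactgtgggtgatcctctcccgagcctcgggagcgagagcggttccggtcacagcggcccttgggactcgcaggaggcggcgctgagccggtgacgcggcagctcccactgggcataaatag
Cpeb1, chr7:81454709-81455008, minus strand: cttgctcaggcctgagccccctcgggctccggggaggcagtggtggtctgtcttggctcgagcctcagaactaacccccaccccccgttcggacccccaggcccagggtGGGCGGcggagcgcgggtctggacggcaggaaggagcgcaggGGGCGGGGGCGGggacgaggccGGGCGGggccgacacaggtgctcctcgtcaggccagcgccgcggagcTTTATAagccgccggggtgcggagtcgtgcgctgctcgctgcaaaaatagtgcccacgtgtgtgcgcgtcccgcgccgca
Padi4, chr4:140774154-140774453, minus strand: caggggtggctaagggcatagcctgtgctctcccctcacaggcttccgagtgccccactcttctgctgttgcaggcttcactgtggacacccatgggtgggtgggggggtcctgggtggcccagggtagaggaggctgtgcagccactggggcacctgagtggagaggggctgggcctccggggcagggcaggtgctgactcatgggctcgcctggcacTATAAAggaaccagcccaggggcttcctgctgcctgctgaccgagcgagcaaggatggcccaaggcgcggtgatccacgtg
Mturn, chr6:54681374-54681673, plus strand: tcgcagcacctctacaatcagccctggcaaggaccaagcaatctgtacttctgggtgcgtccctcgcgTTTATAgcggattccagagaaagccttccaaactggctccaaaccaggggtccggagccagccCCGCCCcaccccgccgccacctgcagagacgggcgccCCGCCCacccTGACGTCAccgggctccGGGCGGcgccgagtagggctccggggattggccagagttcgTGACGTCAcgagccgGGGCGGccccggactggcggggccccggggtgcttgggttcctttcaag

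No motif searched was in all 7 promoters. A TATA box was found in 3 of 7, against 13.6% of 32851 mouse promoters of the same length. It began 30 bases before the start in Cpeb1, 31 bases before it in Padi4 and 182 bases before it in Mturn. GC boxes were found in 5 of 7 against 35.7% of all promoters. Cyclic AMP response elements were found in Mturn, at 72 and 14 bases before the start, and in 1.79% of all promoters. Dinucleotide CpG was dense in Nanos1 (34), Cpeb1 (33), Mturn (27) and Gal (16) and sparser in Spock2 (10), Angptl2 (9) and Padi4 (8), against a median of 7 in all promoters, so that all 7 were above it. Letters known from factors of activated T cells were searched on both strands as well. TTCNNNGAA, a core shared by BCL6 and STAT proteins, was in 0 of 7 (8.3% of all), and TTTCCA of NFAT was in 0 of 7 (21.4% of all). TTCAAAG of TCF1 was in Spock2 (5.14% of all), CAGCTG of E proteins in 2 of 7 (16.3% of all) and TGANTCA of AP-1 in Padi4 (7.81% of all), where it overlapped none of the capitals. The RefSeq start used for Cpeb1 lay 707 bases from the outermost GENCODE start, so its window is that of an internal start. A match describes letters in the window and was not tested as a binding site.

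Levels are read counts scaled to the size of each library (CPM), with the trimmed mean of M-values (TMM) as the scaling between libraries, unless stated otherwise. In all 9 genes every Tfh library was above every TLCP library, and every same-numbered pair was lower in TLCP. Of all 12015 genes tested, 8.86% separated the populations in this direction without overlap, and since the genes were picked on this contrast nothing is read from their count. The median log2 difference of the 9, TLCP minus Tfh, was -2.31 against -0.0041 for all genes tested. In bulk libraries, fewer cells expressing a gene and less RNA per cell cannot be told apart.

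**Figure D1:**
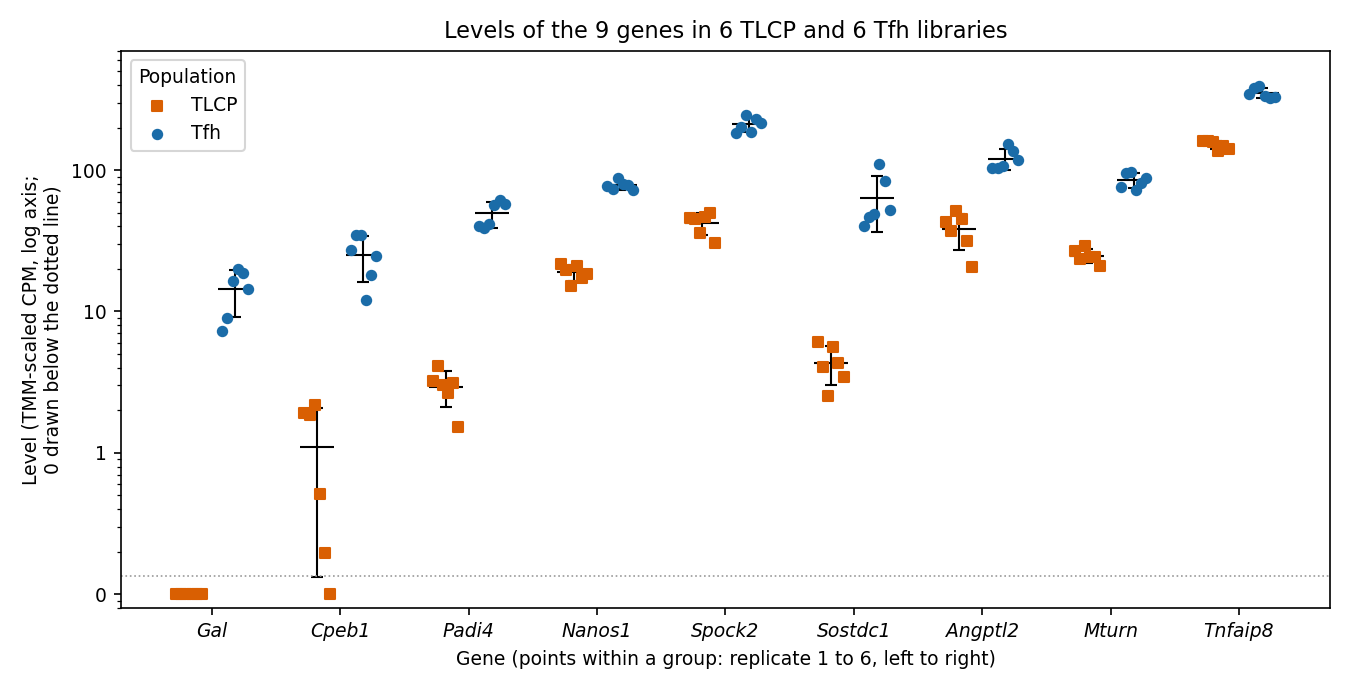
Level of each gene in every library (TMM-scaled CPM, log axis, with 0 drawn under the dotted line). Points run from replicate 1 to 6 within each population and black bars give mean and SD (n = 6). Gal sat at 0 in all 6 TLCP libraries, and for each gene the lowest Tfh point lay above the highest TLCP point.

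Gal encodes the precursor of galanin, a neuropeptide of the central and enteric nervous systems that acts through 3 G protein-coupled receptors. No read was assigned to it in any of the 6 TLCP libraries, and 784 were assigned over the Tfh libraries. In Tfh replicates 1 to 6 it stood at 7.26, 8.97, 16.5, 19.9, 18.8 and 14.5 CPM, with counts of 82, 75, 168, 125, 152 and 182. Replicates 1 and 2 were the lowest Tfh libraries, and the lowest still held 75 reads. Against a summed limit of 3 counts in the 6 TLCP libraries, 0.0512 CPM, the Tfh mean of 14.3 ± 5.20 CPM (SD, n = 6) was at least 279.8-fold higher, and Gal had the lowest fitted log2 difference of all genes tested (rank 1). That limit covers counting error only, as the reads carry no molecular identifiers.

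Sostdc1 encodes a secreted antagonist of bone morphogenetic proteins (BMPs) that also modulates WNT signalling. It stood at 6.10, 4.03, 2.52, 5.62, 4.32 and 3.43 CPM in TLCP replicates 1 to 6 and at 40.3, 46.9, 49.3, 110.2, 83.9 and 52.3 CPM in the Tfh replicates. Among Tfh libraries, replicates 4 and 5 were far above the others, and the lowest Tfh library was 6.60 times the highest TLCP library. The means were 4.34 ± 1.34 and 63.8 ± 27.3 CPM, a 14.7-fold difference that ranked 19 of 12015. Its coefficient of variation in Tfh, 42.9%, was the largest of the 9.

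Angptl2 encodes angiopoietin-like 2, a secreted glycoprotein linked to vessel growth and tissue inflammation. Its TLCP libraries read 42.8, 37.1, 51.5, 45.1, 31.7 and 20.5 CPM and its Tfh libraries 103, 103, 106, 152, 138 and 118 CPM. The 3 highest Tfh libraries were replicates 4 to 6, whereas TLCP replicates 5 and 6 were the lowest of all 12. The gap was narrower than for the genes above: the lowest Tfh library was 2.0 times the highest TLCP library, and the means of 38.1 ± 10.98 and 120.2 ± 20.4 CPM differed 3.15-fold.

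Spock2 encodes testican-2, an extracellular proteoglycan of brain and other tissues that carries glycosaminoglycan chains. TLCP libraries ranged from 30.7 to 49.8 CPM with a median of 45.6, and Tfh libraries from 184 to 244 CPM with a median of 210. The populations were well apart, since the lowest Tfh library was 3.69 times the highest TLCP library. Means were 42.4 ± 7.33 and 211 ± 23.8 CPM, a 4.97-fold difference.

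Cpeb1 encodes a protein that binds the cytoplasmic polyadenylation element of messenger RNAs and controls their poly(A) tails and translation in oocytes and at synapses. It stood at 27.3, 34.7, 34.7, 12.1, 18.2 and 24.8 CPM in Tfh replicates 1 to 6. In TLCP replicates 1 to 6 the counts were 19, 17, 18, 5, 2 and 0. Replicates 4 to 6 were below replicates 1 to 3 in both populations. Means of 1.10 ± 0.970 CPM in TLCP and 25.3 ± 8.99 CPM in Tfh gave a 22.9-fold difference, rank 11 of 12015. Its log2 difference was -4.02 from replicate numbers 1 to 3 alone and -6.28 from numbers 4 to 6 alone.

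Nanos1, a zinc-finger protein that represses translation together with Pumilio proteins and the CCR4-NOT deadenylase in the germ line, had 21.7, 19.6, 15.3, 20.8, 17.4 and 18.5 CPM in TLCP. It had 77.1, 73.3, 88.2, 79.3, 78.6 and 72.6 CPM in Tfh. No library stood apart in either population, and its coefficient of variation in Tfh, 7.2%, was the smallest of the 9. Means of 18.9 ± 2.36 and 78.2 ± 5.63 CPM differed 4.14-fold.

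Padi4 encodes a peptidylarginine deiminase, which turns arginine into citrulline in histones and other proteins and is required for neutrophil extracellular traps. It stood at 3.2, 4.13, 3.0, 2.66, 3.14 and 1.54 CPM in TLCP and at 40.2, 38.9, 41.8, 56.4, 61.7 and 58.1 CPM in Tfh. On this scale Tfh replicates 4 to 6 were all above replicates 1 to 3, and the lowest Tfh library was 9.40 times the highest TLCP library. On TPM the Tfh sets overlapped, with replicate 1 at 22.5 TPM and replicate 4 at 22.2 TPM. The means of 2.95 ± 0.848 and 49.5 ± 10.3 CPM differed 16.8-fold, rank 17 of 12015. Since Padi4 is a neutrophil gene, 10 neutrophil markers were summed in each library. The sum was 6.11, 0.717 and 1.87 CPM in Tfh replicates 1 to 3. It was 44.1, 55.9 and 50.4 CPM in Tfh replicates 4 to 6, so on the CPM scale it moved with Padi4 within Tfh. This was not particular to neutrophil markers. Summed erythroid and platelet markers were at 4.54 to 33.7 CPM in Tfh replicates 1 to 3. In Tfh replicates 4 to 6 they were at 60.2 to 79.6 CPM. Plasma cell, dendritic cell, basophil and CD8 and NK cell sums were also higher there without overlap. B cell, CD4 T cell, macrophage and neural sums overlapped, and Tfh and stromal marker sums were lower there. The neutrophil markers did not move alike. Mpo was the most abundant in TLCP, at up to 28.9 CPM in replicate 5, where the whole sum was 54.5 CPM and Padi4 was at 3.14 CPM. Ngp, Ltf and Camp, genes of neutrophil granules, had no read in any TLCP library. In Tfh these 3 summed to 1.59, 0.239 and 0 CPM in replicates 1 to 3 and to 13.5, 18.5 and 18.01 CPM in replicates 4 to 6. Where they were at 0, in Tfh replicate 3, Padi4 was at 41.8 CPM; their part in the higher Padi4 of replicates 4 to 6 was not tested. Replicate numbers 1 to 3 alone gave a log2 difference of -3.54, and numbers 4 to 6 alone gave -4.60.

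Mturn encodes maturin, known from frog embryos for a part in neural differentiation. Its level ranged from 21.1 to 29.3 CPM in TLCP (median 24.3) and from 72.8 to 97.8 CPM in Tfh (median 85), so that the lowest Tfh library was 2.48 times the highest TLCP library. Means were 24.9 ± 2.83 and 85.4 ± 10.3 CPM, a 3.44-fold difference. Tnfaip8 (chr18:49979427-50107173, plus strand) encodes a cytoplasmic protein induced by tumour necrosis factor that binds phospholipids and affects cell death. It was the least restricted of the 9, with 136 to 162 CPM in TLCP (median 154) and 326 to 393 CPM in Tfh (median 340). The groups did not overlap, but the difference of 2.32-fold between means of 151 ± 10.9 and 351 ± 28.1 CPM ranked only 293 of 12015.

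Transcript levels between genes were compared in the deposited TPM values, which account for length. In Tfh, Spock2 (81.8 ± 12.2 TPM, SD, n = 6), Sostdc1 (74.1 ± 23.2 TPM) and Tnfaip8 (73.5 ± 13.3 TPM) led, and all libraries of Tnfaip8 were above all of the next gene. The next were Nanos1 (42.9 ± 6.92 TPM), Angptl2 (40.6 ± 4.40 TPM), Gal (37.8 ± 10.5 TPM) and Mturn (32.4 ± 6.05 TPM), followed by Padi4 (21.7 ± 3.50 TPM) and Cpeb1 (13.3 ± 5.56 TPM). Ranges of all other neighbours in this order overlapped, though Mturn was above Padi4 in 6 of 6 libraries. Gal, at 0 in TLCP, thus had a Tfh mean inside the ranges of Nanos1 and Angptl2 per transcript length, while its replicates 1 and 2, at 24.9 and 24.3 TPM, were below every library of both.

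In TLCP the order differed. Tnfaip8 (38.2 ± 3.09 TPM) was first and apart from Spock2 (20.02 ± 3.81 TPM), and Spock2, Angptl2 (15.6 ± 3.96 TPM), Nanos1 (12.7 ± 2.41 TPM) and Mturn (11.4 ± 1.015 TPM) overlapped in turn. Sostdc1 (6.46 ± 2.29 TPM) was apart from both its neighbours in the order. Padi4 (1.57 ± 0.397 TPM) and Cpeb1 (0.657 ± 0.567 TPM) closed the order before Gal at 0. Sostdc1 thus held the second place in Tfh and the sixth in TLCP.

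**Figure D2:**
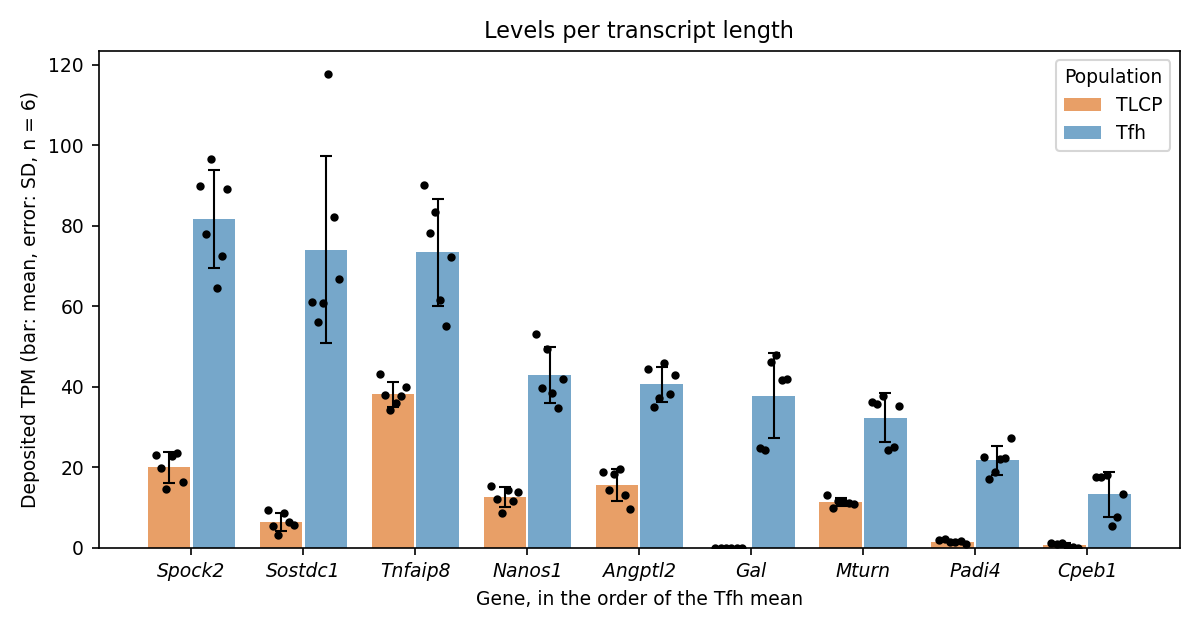
Deposited TPM of each gene, in the order of the Tfh mean (bars are means, error bars SD, dots the 6 libraries of each population). Spock2, Sostdc1 and Tnfaip8 lead in Tfh at 73.5 to 81.8 TPM, while in TLCP only Tnfaip8, at 38.2 TPM, exceeds the level of Mturn in Tfh.

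Differences between replicate numbers, shared by both populations, were then examined, which the choice of the genes did not use. The numbers were taken to stand for mice, less certainly for 3 and 4. Libraries with the same number deviated from their population means together, so a term for the number was added to the fit and tested over all genes. By edgeR's quasi-likelihood test with Benjamini-Hochberg adjustment, 381 of 12015 genes differed between numbers (3.17%), and none of the 9 passed. At an unadjusted p under 0.05, 1 passed, Sostdc1 (adjusted p = 0.20 by edgeR). The share of all genes at that cut was not counted, so nothing is read from this. By limma voom 635 genes passed (5.29%) and among them 3 of the 9: Sostdc1 (adjusted p = 0.00091), Gal (adjusted p = 0.027) and Cpeb1 (adjusted p = 0.030). For Gal, with no TLCP read, the value rests on Tfh, with 1 library for each number, and so shows no difference between mice. Cpeb1 was lower at numbers 4 to 6 in both populations. With only 0 to 19 reads a library in TLCP, its value is not read as such a difference either. Sostdc1 deviated in opposite directions at number 1, by 0.529 in TLCP and -0.564 in Tfh (log2 CPM). At the other numbers its deviations had the same sign. The count over all genes by edgeR fell to 248 without number 1 and to 216 without number 6. This test was added after the levels had been seen.

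Within Tfh, the libraries numbered 4 to 6 and those numbered 1 to 3 did not overlap for Padi4, Sostdc1 and Angptl2, which were higher in 4 to 6. In both populations they did not overlap for Cpeb1 and Tnfaip8, which were lower in 4 to 6; Tnfaip8 ran from 326 to 335 CPM in these Tfh libraries and from 345 to 393 CPM in the others. These separations are on CPM. On TPM the same sets of libraries overlapped for Padi4 and Angptl2 in Tfh and for Tnfaip8 in TLCP. Angptl2, for instance, was at 44.4 TPM in Tfh replicate 1 and at 38.1 TPM in replicate 5. This split was noticed in the values, and it was not tested. The share of all genes that split this way was not counted, so nothing is read from how many of the 9 did. Over all genes, too, deviations of TLCP and Tfh libraries correlated positively within these sets of numbers and negatively between them. No label says that the numbers 4 to 6 shared a day or a sort. Computed from numbers 1 to 3 or from numbers 4 to 6 alone, the log2 difference between populations kept its sign for all 9. Nothing is read from the sign, since the genes were picked on this difference and no library overlapped between populations. The size of the log2 difference was within 0.1 for Nanos1 (-2.07 and -2.03), Spock2 (-2.30 and -2.34), Mturn (-1.76 and -1.82) and Tnfaip8 (-1.22 and -1.23), and further apart for Angptl2 (-1.25 and -2.08) and Sostdc1 (-3.40 and -4.21). With the replicate number as a block it was -4.64 for Cpeb1, -3.82 for Sostdc1 and -1.69 for Angptl2, against -4.56, -3.86 and -1.66 without it.

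**Figure D3:**
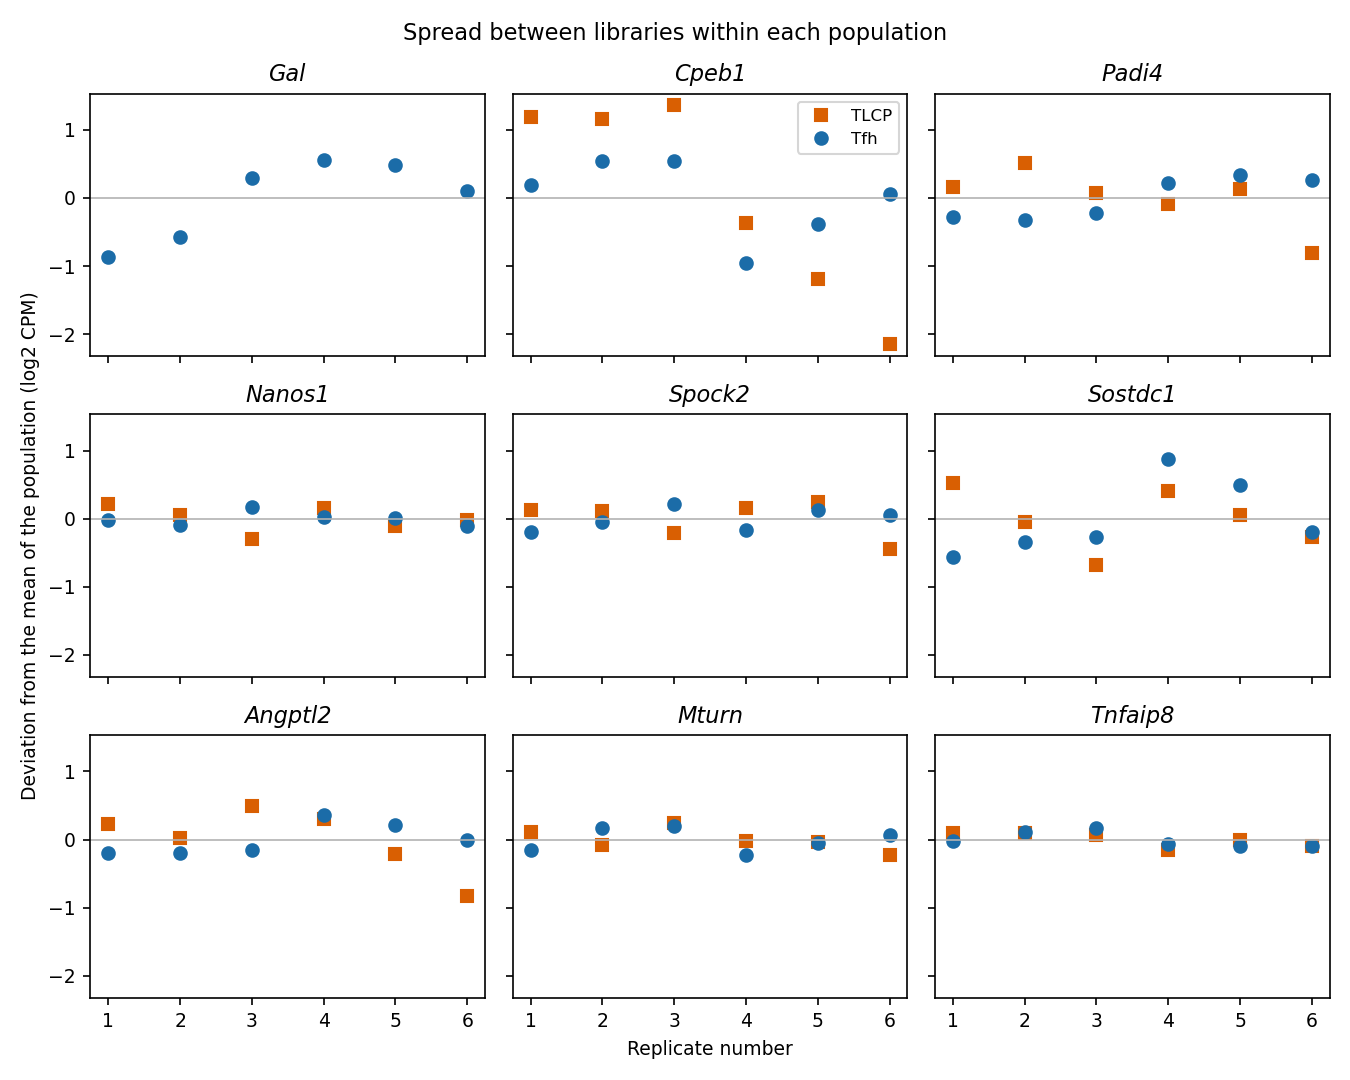
Deviation of each library from the mean of its population (log2 CPM with a prior count of 2) by replicate number, for each gene. Nanos1, Spock2, Mturn and Tnfaip8 stay within 0.442 of 0 in all libraries, Cpeb1 is lower at numbers 4 to 6 in both populations, and Padi4 and Angptl2 are higher there in Tfh. Gal has no TLCP points because all 6 libraries were at 0.

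The next question was whether relatives and partners of the genes shared their pattern. Mturn had no list of relatives or partners and is left out of this part. Of 79 family members and known partners, 36 were abundant enough to be tested. By edgeR's quasi-likelihood test with Benjamini-Hochberg adjustment over all genes, 5 were higher and 5 lower in TLCP, 27.8% of those tested against 33.2% of all genes. Their median log2 difference was -0.02, against -0.0041 for all genes. With scaling by library totals alone, which moved the median of all genes to 0.17, 7 were higher and 2 lower. The strongest fall among the 36, in Bmp7, was 2.12-fold.

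**Figure D4:**
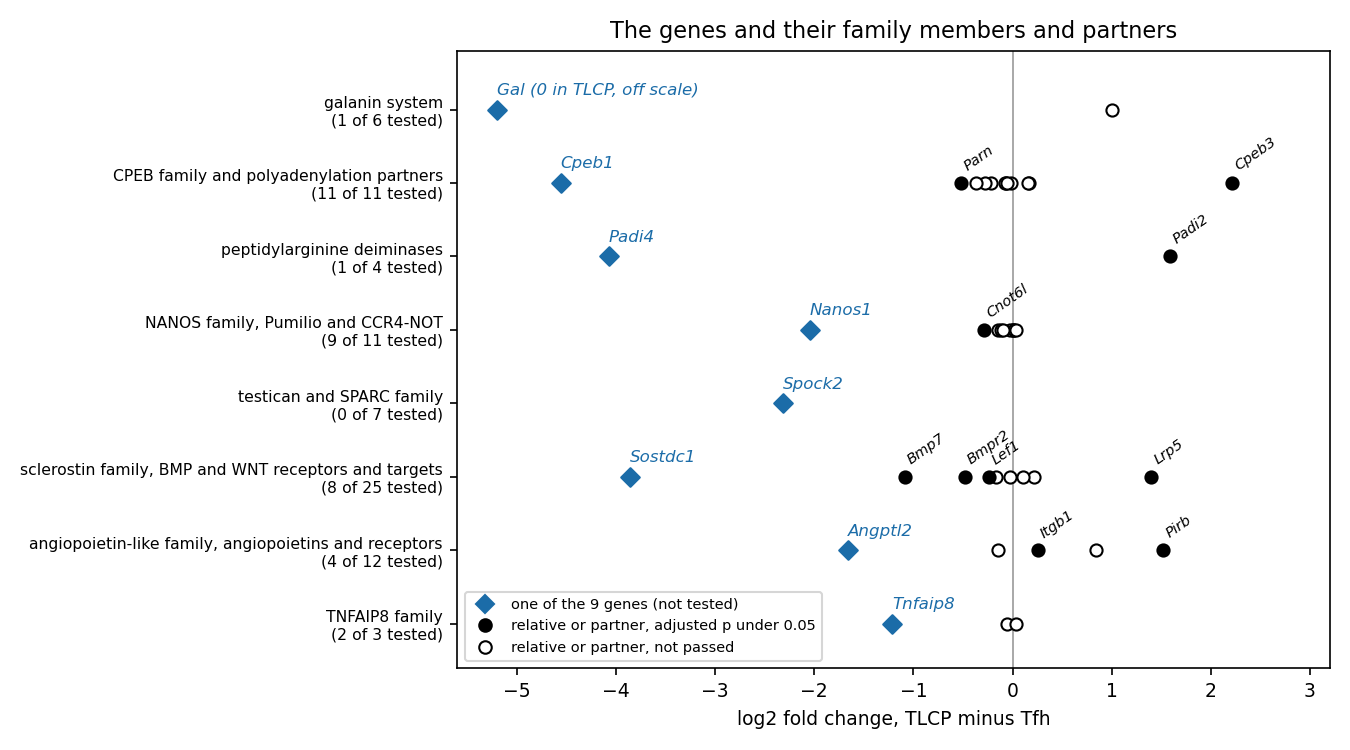
Log2 fold change, TLCP minus Tfh, of each gene except Mturn (diamonds, not tested) and of its tested relatives and partners (circles, filled where the adjusted p of edgeR was under 0.05). The 10 filled circles lie on both sides of 0, from -1.09 for Bmp7 to 2.21 for Cpeb3, whereas the diamonds lie between -1.22 and -4.56 or, for Gal, off the scale.

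Galanin receptors were scarce in both populations. Galr1 and Galr2 had no read in any of the 12 libraries, and Galr3 averaged 0.340 ± 0.314 CPM in TLCP and 0.526 ± 0.475 CPM in Tfh, too low for a test. Pcsk1, a convertase that cleaves prohormones, averaged 2.99 ± 0.788 CPM in TLCP, against 1.55 ± 1.24 CPM in Tfh, and missed the threshold (log2 difference 1.0, adjusted p = 0.085 by edgeR), which it passed without Tfh replicate 4 (1.41). It passed too with the replicate number as a block (1.17).

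Among 11 CPEB relatives and polyadenylation factors, all tested, 1 rose and 1 fell in TLCP. Cpeb3, the paralogue best known from memory-related synapses, went against Cpeb1. It was low, at 2.57 ± 1.81 CPM in TLCP against 0.588 ± 0.415 CPM in Tfh, and higher in 5 of 6 pairs (log2 difference 2.21 ± 0.57 SE, adjusted p = 0.0048 by edgeR). Parn, a poly(A)-specific ribonuclease, averaged 47.0 ± 4.26 CPM in Tfh and fell to 32.8 ± 2.34 CPM in 6 of 6 pairs (log2 difference -0.52 ± 0.084, adjusted p = 8.2e-05 by edgeR), though not by limma on TPM (-0.22). The most abundant of the rest, Cpsf2 (log2 difference -0.08, adjusted p = 0.43) and Cpsf3 (-0.05, adjusted p = 0.59), subunits of the cleavage and polyadenylation complex, did not pass.

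Of the 4 other peptidylarginine deiminases only Padi2 was abundant enough to test, and it went the other way from Padi4. It averaged 4.45 ± 1.5 CPM in Tfh and rose 3.01-fold to 13.4 ± 1.55 CPM, in 6 of 6 pairs and without overlap (log2 difference 1.59 ± 0.21, adjusted p = 8.0e-06 by edgeR). Padi1 (0.622 CPM in TLCP and 0.930 CPM in Tfh) and Padi3 (0.323 and 0.478 CPM) were near the level of a few reads. The pair therefore held opposite ranks in the populations, Padi4 above Padi2 in Tfh and below it in TLCP, on the CPM scale that does not account for length. Mean TPM gave the same order, with Padi4 at 21.7 and Padi2 at 1.92 in Tfh, and 1.57 and 6.96 in TLCP.

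Nanos2 and Nanos3 had no read in any library. Among Pumilio and CCR4-NOT genes, 9 of 11 were tested and 1 fell. The deadenylase Cnot6l averaged 357 ± 45.6 CPM in Tfh and fell to 292 ± 39.6 CPM (log2 difference -0.29, adjusted p = 0.022 by edgeR). That call was lost without Tfh replicate 1 (-0.25) or 3 (-0.26), with scaling by library totals alone (-0.13) and on TPM (-0.00). Pum2, an RNA-binding partner of NANOS proteins, missed the threshold (-0.15, adjusted p = 0.056) and passed it without TLCP replicate 6 (-0.16) and without Tfh replicate 4 (-0.16), 5 (-0.17) or 6 (-0.17). With the block for replicate number it also passed (-0.15). Cnot6 did not pass (-0.11, adjusted p = 0.18).

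Spock2 had no relative expressed at a level that could be tested. The 7 other testican and SPARC family genes summed to between 0.400 and 1.26 CPM in TLCP and between 0.868 and 2.39 CPM in Tfh, with Smoc1 and Sparcl1 the most abundant in Tfh per transcript length, at 0.457 and 0.122 TPM.

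Around Sostdc1, 25 genes of the sclerostin family and of BMP and WNT signalling were listed, 8 were tested, 1 rose and 3 fell. Bmp7, a BMP ligand of the kind that Sostdc1 blocks, averaged 33.9 ± 3.27 CPM in Tfh and fell to 16 ± 4.05 CPM without overlap (log2 difference -1.09 ± 0.14, adjusted p = 5.3e-06 by edgeR). The BMP receptor gene Bmpr2 was at 13.0 ± 2.21 CPM in TLCP against 18.2 ± 3.49 CPM in Tfh (-0.48, adjusted p = 0.018 by edgeR), a call lost without Tfh replicate 5 (-0.39), with library totals alone (-0.29) and on TPM (-0.12). The WNT co-receptor gene Lrp5 was higher in TLCP, at 2.46 ± 0.947 against 0.900 ± 0.529 CPM (1.40 ± 0.46, adjusted p = 0.024 by edgeR), but not without TLCP replicate 1 (1.24), Tfh replicate 1 (1.33) or Tfh replicate 3 (1.36). Lef1, a transcription factor of the WNT pathway and of T cells, was lower (-0.23, adjusted p = 0.019 by edgeR), but -0.07 with library totals alone and 0.05 on TPM, so its direction depended on the scaling. The median of all genes was 0.17 and 0.25 in these settings. The WNT target Axin2 (-0.16, adjusted p = 0.18) and the co-receptor Lrp6 (-0.02, adjusted p = 0.80) did not pass. The paralogue Sost and the antagonists Nog, Chrd and Dkk1 had no read in any library.

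Of 12 angiopoietins, angiopoietin-like genes and receptors, 4 were tested and 2 rose. Pirb, the mouse receptor of the family to which a human receptor of ANGPTL2 belongs, was at 7.47 ± 2.37 CPM in TLCP against 2.65 ± 1.75 CPM in Tfh, higher in 5 of 6 pairs (1.52 ± 0.38, adjusted p = 0.0050 by edgeR). Pirb is also a gene of B cells and myeloid cells, and B cell and dendritic cell markers were higher in TLCP as given below; their part in the result was not tested. Itgb1, the beta chain of integrin receptors, was at 1176 ± 95.7 CPM in TLCP against 984 ± 43.2 CPM in Tfh (0.26 ± 0.062, adjusted p = 0.0032 by edgeR). Angptl4 (-0.15, adjusted p = 0.83) and Itga5 (0.84, adjusted p = 0.18) did not pass.

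The relatives of Tnfaip8 gave the smallest differences. Tnfaip8l2, a brake on immune cell activation, was at 21.9 ± 3.19 CPM in TLCP against 21.4 ± 3.18 CPM in Tfh (log2 difference 0.04, adjusted p = 0.85), and Tnfaip8l1 at 9.19 ± 1.28 and 9.51 ± 1.96 CPM (-0.05, adjusted p = 0.85). Tnfaip8l3 had no read.

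Neighbouring genes were examined to see whether the difference extended along the chromosome. The nearest protein-coding gene on each side of each of the 9 was taken by position alone, 18 genes in all, of which 12 were tested. By edgeR's quasi-likelihood test with Benjamini-Hochberg adjustment, 3 were higher and 5 lower in TLCP, 66.7% of those tested against 33.2% of all genes. Their median log2 difference was -0.20. With library totals alone, 4 were higher and 3 lower. None of the 12 fell as far as its neighbour among the 9, but nothing is read from this, since the 9 were picked for their difference. Of the 6 not tested, Tesmin, at a gap of 2092 bases from Gal, had no read in the 6 TLCP libraries and 0.673 ± 0.695 CPM in Tfh, with reads in 5 of 6 libraries and at most 16; it is named for these values. With no filter on low counts, all 18 were tested, 3 were higher and 6 lower.

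The strongest difference next to one of the 9 was opposite in sign. Chst3, a sulfotransferase of chondroitin chains that lies 46334 bases from Spock2, was higher in TLCP at 44.5 ± 23.0 against 9.01 ± 7.11 CPM in 6 of 6 pairs (log2 difference 2.29 ± 0.58, adjusted p = 0.012 by edgeR). On the other side of Spock2, Ascc1 was lower in TLCP (-0.62 ± 0.099, adjusted p = 7.7e-05 by edgeR), though it did not pass on TPM (-0.32). Plekha8, a glycolipid transfer protein gene left of Mturn, had the strongest fall, from 24.6 ± 3.94 to 14.0 ± 3.12 CPM (-0.81 ± 0.15, adjusted p = 0.00033 by edgeR). Ralgps1 overlaps Angptl2 on the opposite strand and was lower in TLCP in 5 of 6 pairs (-0.59 ± 0.14, adjusted p = 0.0027 by edgeR), but not past the threshold on TPM (-0.25).

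**Figure D5:**
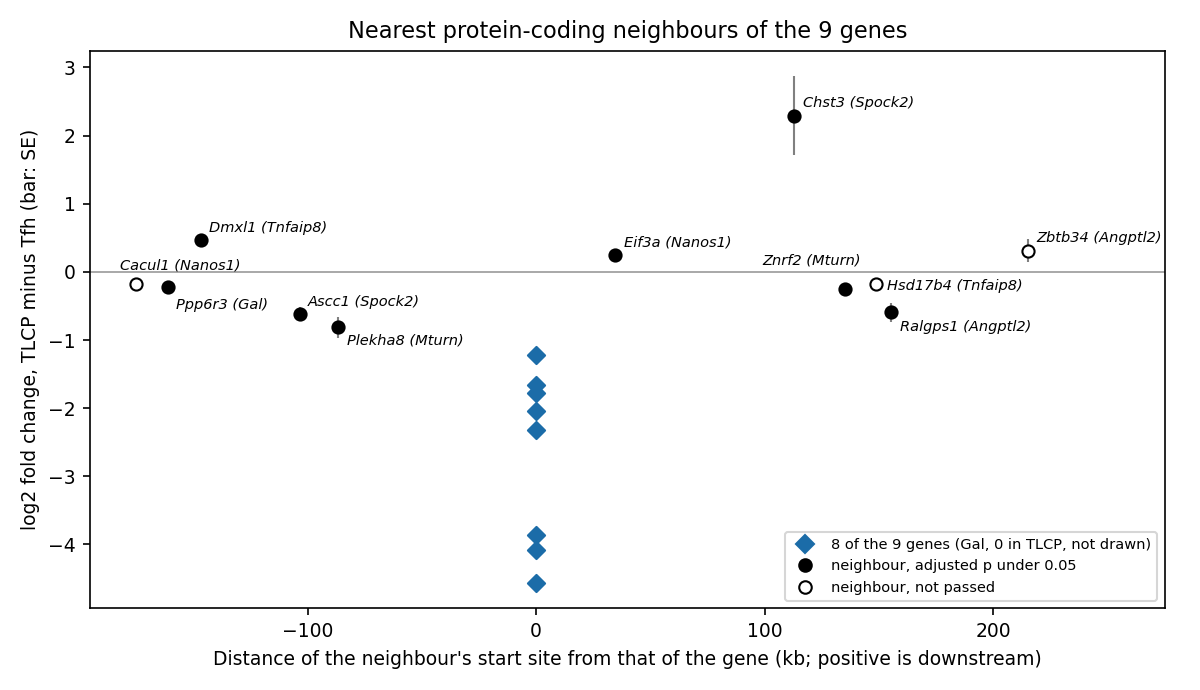
Log2 fold change, TLCP minus Tfh, of tested neighbours (circles with SE bars, filled where the adjusted p of edgeR was under 0.05) against the distance of their start site from that of the gene in parentheses. The neighbours lie between -0.81 and 2.29, and the 8 diamonds, the genes themselves, lie between -1.22 and -4.56.

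Next to Tnfaip8, Dmxl1 was higher in TLCP (0.46 ± 0.092, adjusted p = 0.00063 by edgeR), and next to Nanos1, at a gap of 1203 bases, Eif3a was higher (0.25 ± 0.062, adjusted p = 0.0045 by edgeR). Ppp6r3 beside Gal (-0.21, adjusted p = 0.0089) and Znrf2 beside Mturn (-0.26, adjusted p = 0.0038) were lower in TLCP by edgeR, at -0.04 and -0.09 with library totals alone and at 0.07 and 0.03 on TPM, so their directions depended on the scaling. The median of all genes was 0.17 with library totals alone and 0.25 on TPM. The counts used strand. Reads assigned to the opposite strand were between 0.387% and 1.90% of the total for each of the 9, and 1.52% for Angptl2.

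Among the genes whose levels over the 12 libraries were most like the mean of the 9 (Pearson r of log2 CPM with the mean of their standardised values) were Smox (0.995), Pdcd1 (0.994), Ptpn11 (0.992) and Ptpn13 (0.992). Pdcd1 encodes PD-1, on which the cells were sorted. Smox encodes spermine oxidase, and Ptpn11 and Ptpn13 tyrosine phosphatases. The 12 libraries form a pair of clusters, so these values mostly restate the difference between populations; after each population's mean was removed, r was 0.778, 0.604, 0.785 and 0.757 in the same order. They are given as a description.

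Depth and the genes of other cells are given for all of these values. Libraries held 6939770 to 12688306 reads assigned to genes, and 3 counts correspond to between 0.236 and 0.432 CPM before scaling. All tested CD4 T cell genes except Cd3e, 6 of 7, were lower in TLCP, with a median log2 difference of -0.40; Cd4 was at 725 ± 47.1 and 955 ± 47.5 CPM and Trac at 647 ± 77.5 and 976 ± 62.2 CPM. Of 9 Tfh markers 8 were lower in TLCP, among them Cxcr5 (277 ± 56.9 against 849 ± 78.2 CPM), while Icos (500 ± 97.2 against 531 ± 59.1 CPM) did not pass. Genes of B cells (7 of 8 higher, summed 407 to 1780 CPM in TLCP and 125 to 491 CPM in Tfh), of plasma cells (6 of 6 tested higher, 717 to 3338 against 81.0 to 250.3 CPM) and of basophils (5 of 5 tested higher, 26.1 to 96.2 against 0.239 to 7.17 CPM) were higher in TLCP. The most abundant of each list over the 12 libraries were Ms4a1 and Pax5, of which Pax5 did not pass, Jchain and Xbp1, and Mcpt8 and Prss34. Their part in the differences of the 9 was not tested. With immunoglobulin, ribosomal RNA, B cell and plasma cell genes left out before scaling, the log2 differences of the 9 ranged from -1.20 for Tnfaip8 to -10.09 for Gal.

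Markers of other cells in which these genes are known were also counted. Of 8 neural and neuroendocrine markers only Eno2 was tested and it did not pass, and their sum, with Eno2 and Tubb3 the most abundant, was 1.63 to 6.73 CPM in TLCP and 2.66 to 4.96 CPM in Tfh. Of 11 stromal, follicular dendritic and endothelial markers Pecam1, which T cells also express, was lower in TLCP (131 ± 14.3 against 189 ± 24.9 CPM), Ccl19 was at 0 in all libraries and the next, Col1a1, averaged 0.714 and 0.533 CPM. Of 10 neutrophil markers 4 were tested and 0 passed by edgeR, with Mpo (13.9 ± 9.48 CPM in TLCP, 3.48 ± 3.41 CPM in Tfh) and S100a9 (2.44 ± 3.27 and 7.19 ± 7.57 CPM) the most abundant; Ngp (5.13 ± 5.46 CPM), Ltf (3.0 ± 2.97 CPM) and Camp (0.511 ± 0.683 CPM), too unevenly present for a test, had reads in Tfh only. Macrophage and monocyte genes (0 of 3 tested passed, led by Lyz2 and Cd68) and erythroid and platelet genes (0 of 5, led by Hbb-bs) gave no call. Of 3 dendritic cell genes tested, Flt3 and Itgax were higher in TLCP and Zbtb46 did not pass, and CD8 and NK cell genes gave 1 higher (Eomes) and 1 lower (Klrb1c) of 4.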

How the data were processed

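The 12 libraries were made from polyA-selected RNA with the KAPA RNA HyperPrep kit, per the labels' protocols. Reads were processed with bcl2fastq 2.20, STAR 2.7.1a, the mouse build GRCm38 and DESeq2 1.30.1, per the submitters' processing notes, and no source used here names the annotation release. The authors deposited stranded counts per gene for each library, a table of TPM, and a table of their own comparison whose library columns hold a scaled signal (counts divided by size factors). Its other columns, log2 fold changes with their Wald score and p-values, are the authors' own DESeq2 comparison, deposited as such, and were not used here. The library columns gave back whole reads for 100% of values (tolerance 0.01 reads), equal to the deposited counts, and the same fit on them made the same number of calls. Gene positions came from GENCODE M21, whose spans equalled those of 54349 of the 55401 genes. Of the reads, 44.9% to 56.4% were assigned to no gene and were kept out of library sizes. This share includes unmapped and ambiguous reads and those that mapped to several places, which were 16.1% to 24.3% of the reads.

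Counts on the sense strand were fitted with edgeR 4.0.16 (R 4.3.3) by quasi-likelihood with filterByExpr, TMM scaling and robust dispersion, over 12015 genes with a Benjamini-Hochberg threshold of 0.05; the standard error is the log2 difference divided by the square root of F. Of these genes 33.2% were called (16.8% higher and 16.4% lower in TLCP). Alternatives used DESeq2 1.42.0 and limma 3.58.1 on log2(TPM + 1), other scalings and filters, unstranded counts, and each library left out in turn. The fit was tested on simulated data. P-values measure the spread between libraries, which the labels number without saying more of their source; the series text gives 6 mice. Same-numbered TLCP and Tfh libraries deviated together (r of 0.127 to 0.318 over genes in all 6 pairs, each over 0.1), so the numbers were taken to pair them. Different numbers gave r of -0.247 to 0.209, above 0 within numbers 1 to 3 and within 4 to 6 and below 0 between these sets. TLCP replicate 3 correlated better with Tfh replicate 2 than with 3. Tfh replicate 3 correlated better with TLCP replicate 2, and Tfh replicate 4 with TLCP replicate 5, than with its own number. The pairing is thus less certain for numbers 3 and 4. No library pair agreed within sampling noise (the smallest chi-square per degree of freedom was 6.66).

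The 9 genes and all lists were chosen with earlier results of these data known. Named were all 9 genes, every called relative, partner and neighbour, the 2 most abundant others of each family list, the 2 most abundant of each marker list, and the 5 genes most like the set, leaving out antigen receptor segments, pseudogenes and unnamed models. A few genes that this rule would name are not reported here. Genes singled out beyond these, such as receptors and paralogues at 0, were chosen after their values were seen.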

Additional observations from a re-analysis of the deposited data

Results flagged for a closer look

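In 2 of 53 groups of 6 libraries, a library of a named gene stood apart from the other 5 by Dixon's criterion, which chance meets in about 1 in 20 groups. Padi2 in TLCP replicate 6 was at 10.4 CPM, below the next library at 13.4 CPM, with the highest at 14.7 CPM. Bmp7 in Tfh replicate 3 was at 40.4 CPM, above the next library at 33.97 CPM, with the lowest at 31.7 CPM. Both genes kept their direction between populations in every pair. None of the 9 Tfh-high genes had such a library in either population.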

How the results depend on the processing

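Of 234 recomputed log2 differences of the 9 genes, 0 reversed and 9 moved by more than the spread between replicates, 6 of them on TPM. The genes were picked on this difference in these libraries, so nothing is read from the lack of reversals. With limma on log2(TPM + 1), the median of all genes moved to 0.25. Calls went from 10 of 36 tested to 6 of 30 among relatives and partners and from 8 to 4 among neighbours. Lef1 (0.047), Ppp6r3 (0.072) and Znrf2 (0.030) reversed in sign, though each stayed below that median. The cause was not tested. Leaving out each library gave 8 to 13 calls among relatives and partners, 8 to 9 among neighbours and 3489 to 4008 over all genes against 3983. Among neighbours, Cacul1 passed without Tfh replicate 4 (-0.22) or 6 (-0.23). The replicate block gave 14 calls among relatives, 8 among neighbours and 4453 over all genes; beside Pcsk1 and Pum2 it added Tent2 (-0.27) and Aurka (-0.41) and ended no named call. Genes differing between replicate numbers went from 381 to 635 with limma voom, 1178 with no filter and 216 to 463 without 1 number. With log2(TPM + 0.1) in place of log2(TPM + 1), the TPM difference was -8.51 for Gal, -4.56 for Cpeb1 and -3.73 for Padi4. Depth limits Gal and Cpeb1 in TLCP, at 0 and at 0 to 19 reads a library.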
